A study of Mus musculus with 36 samples.

Results

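The genes described here encode the potassium channels of the mouse brain, meaning the pore-forming subunits and the auxiliary subunits whose official symbols begin with Kcn. Members were the array probes whose gene symbol started with Kcn, continued with letters and a number, and were detected (detection p of at most 0.05) in all 3 vehicle arrays of at least 1 brain region. Of 166 probes for 90 such genes on the array, 83 probes for 54 genes met this rule, out of 45281 probes on the array, of which 18488 were detected by the same rule. By role, the 83 probes were divided into 31 for 17 voltage-gated pore subunits, 8 for 6 silent voltage-gated subunits, 13 for 9 auxiliary subunits, 11 for 7 calcium- or sodium-activated channel genes, 10 for 8 inward rectifiers and 10 for 7 two-pore-domain channels. The large-conductance channel subunit Kcnmb4 was placed with the calcium-activated channels. The choice of probes used only vehicle detection, so it favoured genes that are high in at least 1 region, and no level was compared between regions in making it.

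The arrays measured total RNA of adult male mice, strain C57BL/6J by the labels. By the study's methods they were C57BL/6, bought at 10 weeks of age, with Taconic Farms and The Jackson Laboratory both named as suppliers. Which mice came from which supplier is not given there. Mice received 10 daily intraperitoneal injections of vehicle (saline, polyethylene glycol and DMSO), the benzamide histone deacetylase inhibitor Cpd-60 at 45 mg/kg, the hydroxamate inhibitor SAHA at 25 mg/kg or the benzamide inhibitor CI-994 at 10 mg/kg, and tissue was taken 1 h after the last of them. The injection volume was 7.5 mL/kg for vehicle and Cpd-60 and 5 mL/kg for SAHA and CI-994. Tissue came from the hippocampus (HIP), the nucleus accumbens (NAc) and the prefrontal cortex (PFC), and RNA of 2 mice was pooled for each array, which gave 3 pools for each of the 12 combinations of treatment and region, or 36 arrays. All animals were intact wild-type mice, each pool was 2 animals of a single sex, and the dissections held every cell type of the region. Intensities are given as log2 of quantile-normalized bead signals that still contain the background, which on this scale lay near 6.5, so differences of dim probes are compressed.

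Potassium channels let potassium ions leave or enter the cell and so set the resting potential, the shape and rate of action potentials and the firing pattern of neurons. Voltage-gated pore subunits open on depolarization, silent subunits join and alter some of them without forming channels alone, and auxiliary subunits such as the KChIP proteins (Kcnip genes) and the beta subunits (Kcnab genes) change their gating and surface level. Calcium- and sodium-activated channels carry afterhyperpolarizations, inward rectifiers hold the resting potential and serve G-protein receptors, and two-pore-domain channels carry leak current.

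Raw 95th percentile signals ran from 349.9 to 1079.7 over the 36 arrays, and between 69.9% and 96.4% of the 83 probes were detected on each. Replicate pools correlated between 0.970 and 0.994 over all probes. The dimmest array was replicate 1 of Cpd-60 in NAc (95th percentile 349.9, with 69.9% of the member probes detected). Replicates 2 and 3 of SAHA in HIP were also dim (95th percentiles 437.7 and 452.0, with 77.1% of the member probes detected on each). The striatal marker genes, among them Drd1a and Rgs9, were higher in NAc than in PFC for 7 of 7 (median log2 difference 3.44), and the cortical markers were lower for 5 of 5 (median -2.33). Of 4 hippocampal markers tested, 3 were higher in HIP than in PFC, the exception being Wfs1, which was highest in NAc. Oligodendrocyte markers were higher in HIP and in NAc than in PFC for 6 of 6, and the choroid plexus markers Ttr, Kl and Folr1 were higher in HIP than in PFC for 3 of 3, with a summed intensity in HIP vehicle pools from 2710 to 10627 against 351.4 to 828.1 in PFC. Of the other lists, astrocyte markers were higher in HIP than in PFC for 3 of 6 and lower for 1, microglial markers higher for 1 of 5, endothelial markers lower for 1 of 4 and interneuron markers higher for 2 of 4. Each region filled 2 BeadChips of its own, so region and BeadChip cannot be told apart, and in dissected tissue fewer cells of a type and less RNA per cell cannot be told apart either.

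Under vehicle, 75 of the 83 probes were detected in all 3 pools of PFC, 72 in HIP and 64 in NAc, with 54 detected in every region, 20 in 2 and 9 in 1. Region differences were tested with limma across all 18488 detected probes, with the pool as a random block. Between NAc and PFC, 49 of the 83 probes differed at adjusted p under 0.05 (19 higher in NAc), against 23.7% of all probes tested. HIP differed from PFC at 36 probes (9 higher in HIP; 31.1% of all probes) and from NAc at 34 (12 higher in HIP; 20.6% of all probes). Because a probe detected in only 1 region had to be high there, the same counts were taken over the 54 probes detected in all 3 regions: 36 between NAc and PFC (26.7% of all such probes), 27 between HIP and PFC (33.6%) and 23 between HIP and NAc (22.5%). Of the 60 probes with at least 1 called difference, the highest mean lay in PFC for 31, in NAc for 21 and in HIP for 8. From 6 arrays at a time, the counts for NAc against PFC, HIP against PFC and HIP against NAc were 26, 22 and 17 without vehicle replicate 1, 19, 15 and 11 without replicate 2, and 49, 44 and 44 without replicate 3. Replicate 3 lay on the second BeadChip of each region and vehicle replicates 1 and 2 on the first. In NAc the 6 arrays of one BeadChip lay wholly above or below the 6 of the other for 8 of the 83 probes (16.6% of all probes), among them Kcnd2, Kcnk2 and Kcnip1, against 0 of 83 in PFC (0.99%) and in HIP (2.09%).

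**Figure D1:**
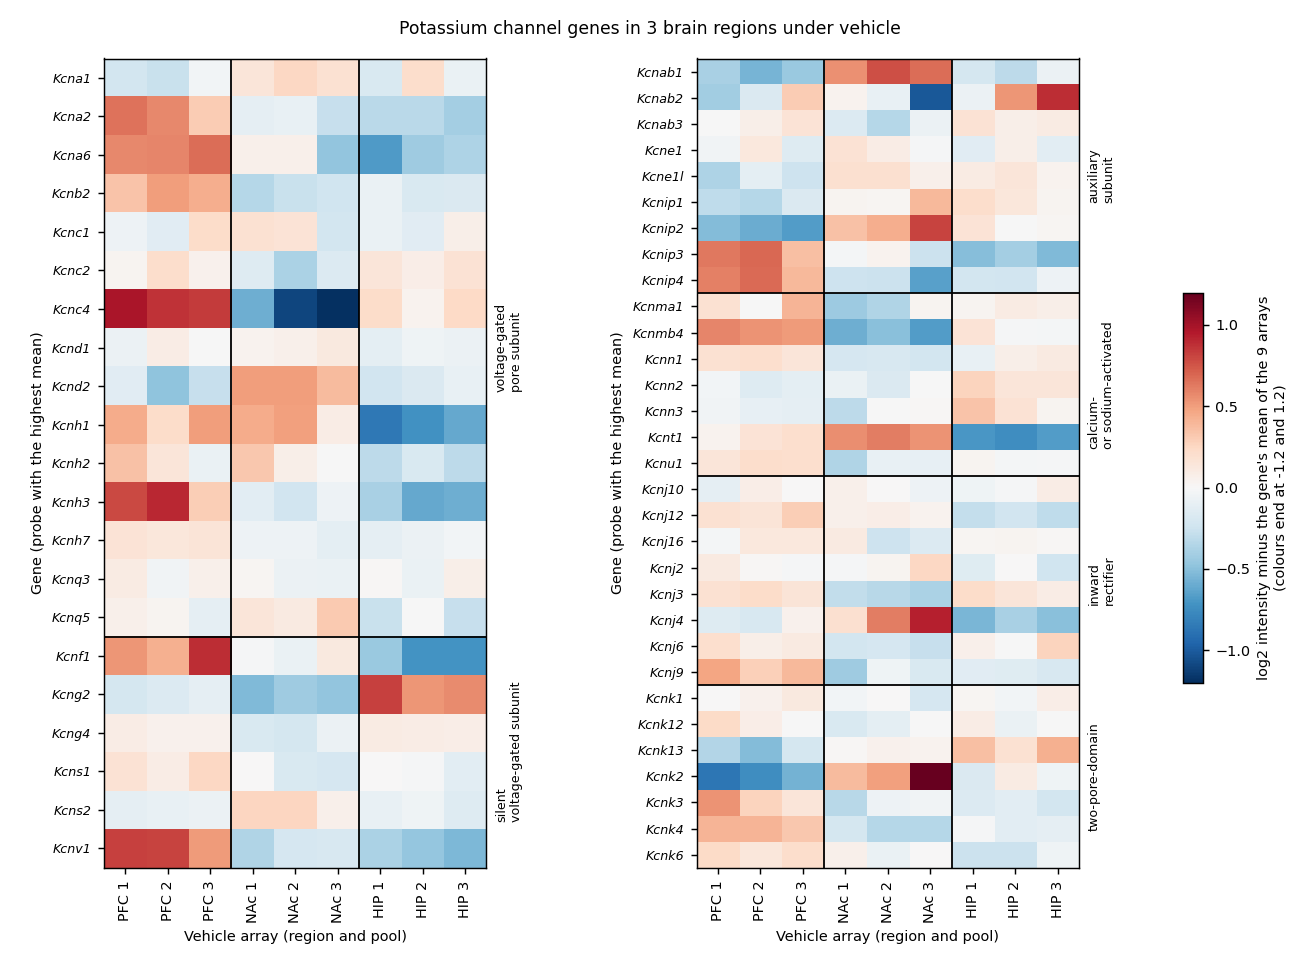
Heat map of 52 of the 54 genes (rows, grouped by role, 1 probe each) in the 9 vehicle arrays (columns, 3 pools per region), with colour giving log2 intensity minus the gene's mean over the 9 arrays and ending at -1.2 and 1.2. Kcnc4, Kcnv1 and Kcnh3 are red in the 3 PFC pools, Kcnab1, Kcnk2 and Kcnj4 in the NAc pools and Kcng2 in the HIP pools, while Kcnq3, Kcnj10 and Kcnk1 are pale throughout.

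The 27 drug-treated arrays, which took no part in choosing the probes, gave region differences of the same kind. In them 56 probes differed between NAc and PFC (48.2% of all probes), 49 between HIP and PFC (53.8%) and 53 between HIP and NAc (35.7%). Over the 54 probes detected in every region under vehicle the counts were 39, 37 and 39, against 50.7%, 56.6% and 38.6% of all such probes. Of the 49 probes called under vehicle between NAc and PFC, 46 were called in the drug-treated arrays with the same sign, as were 34 of 36 between HIP and PFC and 32 of 34 between HIP and NAc, and none was called with opposite signs. Across the 83 probes the vehicle and drug-treated differences correlated at r = 0.986, 0.976 and 0.95 for the 3 contrasts, a description over probes that share arrays' BeadChips within each region. The largest gap was that of Kcnab2, a beta subunit of Kv1 channels, which differed by 0.80 ± 0.31 (SE) between HIP and NAc under vehicle (adjusted p = 0.094) and by 1.41 in the drug-treated arrays (adjusted p = 3.6e-05).

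**Figure D2:**
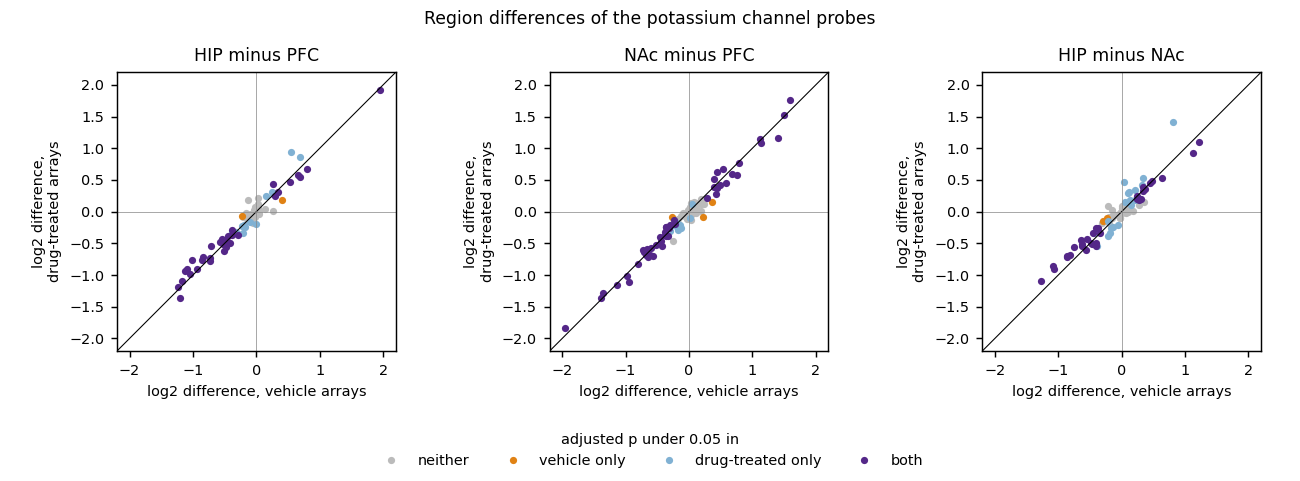
Region differences (log2) of the 83 probes in the 9 vehicle arrays (x axis) and in the 27 drug-treated arrays (y axis), with 1 panel for each pair of regions, the line of equality, and colours for an adjusted p under 0.05 in neither, either or both sets. Nearly all coloured points lie along the line, with 46, 34 and 32 probes called in both sets for NAc against PFC, HIP against PFC and HIP against NAc.

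Among voltage-gated pore subunits, Kcnc4, which encodes the fast delayed rectifier Kv3.4, showed the largest difference between regions. Its brighter probe, ILMN_2771095, read 10.33, 10.23 and 10.19 in the PFC vehicle pools, 8.77, 8.26 and 7.86 in NAc and 9.57, 9.39 and 9.60 in HIP. The 3 regions did not overlap in these pools or over all 12 arrays of each region. NAc lay 1.96 ± 0.19 (SE) below PFC on the log2 scale (adjusted p = 4.4e-05) and HIP lay 1.23 ± 0.19 above NAc (adjusted p = 0.0011). A second Kcnc4 probe gave -1.35 ± 0.13 between NAc and PFC (adjusted p = 4.1e-05), but its difference of 0.34 between HIP and NAc did not pass (adjusted p = 0.090).

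Kcnd2 encodes Kv4.2, the main pore of the dendritic A-type current, and its 2 probes disagreed. ILMN_2625435 read 9.25, 8.91 and 9.11 in PFC, 9.89, 9.89 and 9.77 in NAc and 9.15, 9.22 and 9.30 in HIP, so it was highest in NAc and alike in the other regions. ILMN_2644229 read 7.40, 7.38 and 7.86 in PFC, 8.74, 8.74 and 9.95 in NAc and 9.32, 9.65 and 9.51 in HIP. Both were higher in NAc than in PFC (by 0.76 ± 0.09 and 1.59 ± 0.30), but HIP exceeded PFC only for the second (1.94 ± 0.30, adjusted p = 0.0012, against 0.14 ± 0.09, adjusted p = 0.30). Between HIP and NAc the first was lower in HIP by 0.63 ± 0.09 (adjusted p = 8.8e-04), while the second differed by 0.35 ± 0.30 (adjusted p = 0.44). Over all treatments the second probe read 8.28 to 8.74 on the first NAc BeadChip and 9.60 to 10.17 on the second, with HIP at 8.94 to 9.85, so that NAc lay below HIP on the first and overlapped or exceeded it on the second, while both BeadChips lay above PFC. The file gives no probe positions, so which transcripts each probe reads is not known here.

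Several Kv1 and EAG-family genes were highest in PFC. Kcnh3, an EAG-like subunit of forebrain neurons, read 8.94, 9.06 and 8.45 in PFC, 8.02, 7.92 and 8.09 in NAc and 7.76, 7.53 and 7.57 in HIP, and PFC lay 2.29-fold above HIP (adjusted p = 3.4e-04). Its NAc deficit of 0.81 ± 0.15 lost its call when vehicle replicate 1 or 2 was left out (adjusted p = 0.063 and 0.097). Kcnh1, which encodes the EAG channel Kv10.1, differed in pattern: it read 8.97, 8.75 and 9.03 in PFC and 8.98, 9.02 and 8.62 in NAc, with overlap, but 7.67, 7.80 and 7.92 in HIP, which was 1.12 ± 0.12 below PFC and 1.08 ± 0.12 below NAc. Kcna6 and Kcna2, both Kv1 pore subunits, were lower in HIP than in PFC by 1.10 ± 0.14 and 0.86 ± 0.10, and lower in NAc than in PFC by 0.73 ± 0.14 and 0.67 ± 0.10. All 3 Kcna6 probes were lower in both. Kcna1, the Kv1 subunit of axons, was 0.36 ± 0.11 higher in NAc than in PFC (adjusted p = 0.035) under vehicle, a difference of 0.15 in the drug-treated arrays (adjusted p = 0.11).

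The delayed rectifier Kcnb2 was lower than in PFC both in HIP, by 0.57 ± 0.07, and in NAc, by 0.71 ± 0.07 (adjusted p = 6.5e-05). Kcnc2, a Kv3 subunit of fast-spiking interneurons, was 0.33 ± 0.09 lower in NAc than in PFC on 1 of its 3 probes. Kcnc1, its relative Kv3.1, did so on the dimmer of 2 probes (-0.42 ± 0.11, adjusted p = 0.023), while the brighter gave 0.03 ± 0.13. Kcnq3, a subunit of the M-current channel, had no called difference. Over the 31 voltage-gated pore probes the median difference was -0.18 between HIP and PFC and -0.04 between NAc and PFC, against -0.04 and -0.0028 over all probes tested.

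Among silent subunits, Kcnv1 and Kcnf1 were highest in PFC and Kcng2 in HIP. Kcnv1, a silent partner of Kv2 channels, read 8.73, 8.72 and 8.42 in PFC, 7.54, 7.70 and 7.71 in NAc and 7.53, 7.44 and 7.37 in HIP, and was 0.97 ± 0.10 lower in NAc (adjusted p = 6.6e-05) and 1.18 ± 0.10 lower in HIP (adjusted p = 3.8e-05). Kcnf1, another Kv2 modifier, read 9.69, 9.58 and 10.04 in PFC, 9.14, 9.07 and 9.27 in NAc and 8.71, 8.44 and 8.44 in HIP, so the regions formed 3 separate steps, with HIP 1.24 ± 0.13 below PFC. In the drug-treated arrays PFC stayed apart for both genes, from 8.24 to 8.67 for Kcnv1 and from 9.59 to 10.05 for Kcnf1, each above all NAc and HIP arrays. Kcng2 ran the other way: it read 7.90, 7.61 and 7.65 in HIP and 6.86, 6.91 and 6.97 in PFC, and was detected in none of the NAc vehicle pools. HIP was 0.80 ± 0.09 above PFC (adjusted p = 1.6e-04) and at least 2.06-fold above NAc, taking as the dim level the lowest signal of detected probes or the probe's own where that was higher.

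The auxiliary subunits carried the most probes that were higher in NAc, with 8 of 13 higher and 3 lower than in PFC (median log2 difference 0.42). Of these 8 probes, 3 were for Kcnab1 and 3 for Kcnip2, so the count and the median describe probes and not separate genes. Kcnab1, the Kv1 beta subunit that confers fast inactivation, read 10.06, 9.90 and 10.01 in PFC, 10.999, 11.23 and 11.12 in NAc and 10.24, 10.14 and 10.38 in HIP on its brightest probe. NAc exceeded PFC on all 3 Kcnab1 probes, by 1.13 ± 0.09, 1.41 ± 0.08 and 0.78 ± 0.09 (adjusted p of 1.9e-04 or less), and exceeded HIP on all 3. In the drug-treated arrays the brightest probe stayed between 10.52 and 11.31 in NAc and between 9.60 and 10.11 in PFC. The KChIP genes, which encode calcium-binding partners of Kv4 channels, split by member. Kcnip2 was higher in NAc than in PFC by 1.13 ± 0.12 (7.66, 7.58 and 7.51 in PFC against 8.53, 8.62 and 8.99 in NAc), while Kcnip3 and Kcnip4 were lower by 0.64 ± 0.11 and 0.94 ± 0.13. Kcnip3 was lower still in HIP, at 8.51, 8.62 and 8.50 against 9.66, 9.72 and 9.39 in PFC (-1.04 ± 0.11, adjusted p = 1.7e-04). Kcnip1, which was detected in 1 of 3 PFC pools and so near background there, differed from PFC by 0.42 ± 0.11 in NAc and 0.40 ± 0.11 in HIP. On the first NAc BeadChip it read 6.62 to 6.91 over all treatments, which overlapped PFC, and on the second 7.06 to 7.36. The HIP difference lost its call without vehicle replicate 1 or 2 (adjusted p = 0.19 and 0.20) and was 0.18 in the drug-treated arrays (adjusted p = 0.10).

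Calcium- and sodium-activated channels separated the regions in opposite directions. Kcnmb4, the neuronal beta subunit of the large-conductance (BK) channel, read 9.02, 8.97 and 8.94 in PFC, 7.84, 7.92 and 7.75 in NAc and 8.60, 8.42 and 8.40 in HIP, 3 ranges that did not overlap. NAc lay 1.14 ± 0.08 below PFC (adjusted p = 5.0e-06), and a second probe gave -1.39 ± 0.11. Kcnma1, the pore of the same channel, was lower in NAc than in PFC by 0.45 ± 0.14 and 0.57 ± 0.08 on its brighter probes. Kcnt1, the sodium-activated channel Slack, was highest in NAc at 8.12, 8.18 and 8.11, against 7.61, 7.72 and 7.76 in PFC and 6.87, 6.82 and 6.89 in HIP. HIP was 1.28 ± 0.07 below NAc (adjusted p = 6.8e-07) and 0.84 ± 0.07 below PFC. On a dimmer Kcnt1 probe NAc lay 0.11 above PFC, which did not pass the threshold. Both Kcnt1 probes were called lower in HIP than in NAc and in PFC. The small-conductance gene Kcnn2 was detected under vehicle in HIP only, the level that made it a member, and in the drug-treated arrays HIP lay 0.25 ± 0.045 above PFC (adjusted p = 8.2e-05) at levels near background. Kcnn3 had no called difference.

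Among inward rectifiers, the G-protein-gated (GIRK) genes were low in NAc. Kcnj3 read 6.79, 6.76 and 6.71 in NAc, 7.28, 7.31 and 7.24 in PFC and 7.31, 7.23 and 7.18 in HIP, and was 0.52 ± 0.07 lower in NAc than in PFC (adjusted p = 3.5e-04). Kcnj6 was detected in no NAc vehicle pool and was at least 1.19-fold higher in PFC, and Kcnj9 was 0.60 ± 0.10 lower in NAc and 0.54 ± 0.10 lower in HIP than in PFC. A dimmer Kcnj9 probe, detected in no NAc vehicle pool, gave -0.24 and -0.23, neither past the threshold. The strong rectifier Kcnj4 (Kir2.3) was the opposite: NAc read 8.86, 9.29 and 9.60 and HIP 8.12, 8.28 and 8.16, a difference of 1.06 ± 0.16 (adjusted p = 0.0011), whose adjusted p was 0.056 without vehicle replicate 2. Its dimmer probe did not differ between NAc and PFC past the threshold (0.08 ± 0.10). The glial rectifiers Kcnj10 and Kcnj16 had no called difference between any pair of regions under vehicle, with differences between -0.18 and 0.12. Both probes were dim, Kcnj10 being detected in 2 of 3 PFC pools and Kcnj16 in 1 of 3 NAc pools.

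The two-pore-domain gene Kcnk2 (TREK-1), a mechanically gated and lipid-gated leak channel, read 7.10, 7.22 and 7.40 in PFC, 8.35, 8.46 and 9.40 in NAc and 7.80, 8.06 and 7.91 in HIP. NAc exceeded PFC by 2.83-fold (adjusted p = 0.0013), and a second probe gave 0.58 ± 0.07 on the log2 scale. Over all treatments it read 7.90 to 8.63 on the first NAc BeadChip and 8.68 to 9.58 on the second, both above PFC, and the difference between HIP and NAc (-0.81 ± 0.24, adjusted p = 0.036) lost its call without replicate 1 or 2 (adjusted p = 0.11 and 0.17). Kcnk13 was higher in HIP and NAc than in PFC by 0.69 ± 0.10 and 0.40 ± 0.10. Kcnk3, Kcnk4 and Kcnk6 were lower in HIP than in PFC by 0.48 ± 0.11, 0.46 ± 0.07 and 0.38 ± 0.08, and Kcnk1 had no called difference. A dimmer Kcnk6 probe did not differ, at 6.708, 6.75 and 6.796 in PFC and 6.736, 6.763 and 6.755 in HIP, with overlap. In all, 10 genes were called on no probe: Kcnab2, Kcnd1, Kcne1, Kcnj2, Kcnj10, Kcnj16, Kcnk1, Kcnk12, Kcnn3 and Kcnq3.

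**Figure D3:**
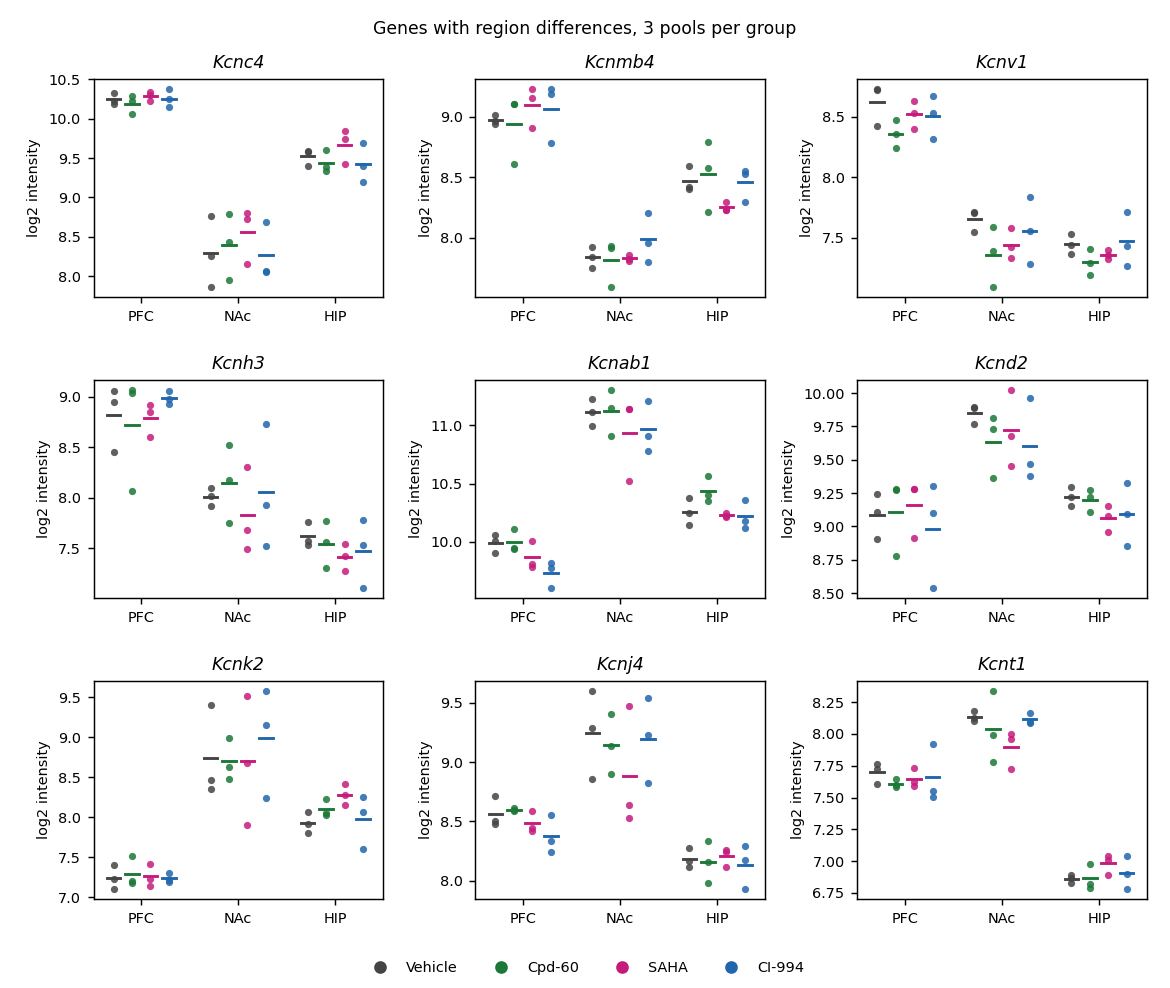
Log2 intensity of 9 genes in PFC, NAc and HIP, 1 panel a gene, with the 3 pools of each treatment as points and their mean as a bar. Kcnc4 and Kcnmb4 are lowest in NAc, Kcnv1 and Kcnh3 highest in PFC, Kcnab1, Kcnd2, Kcnk2, Kcnj4 and Kcnt1 highest in NAc, and the 4 treatments keep this order of region means in each panel except that Kcnd2 is close between PFC and HIP.

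The promoters of 4 genes are shown that had at least 2 probes and the widest differences between NAc and PFC on all of them. Of these, 2 were low in NAc (Kcnc4, Kcnmb4) and 2 high in NAc (Kcnd2, Kcnab1). They were chosen for these region differences after the values were seen, and a link of the promoters to the drugs was not tested. Each sequence is 300 bases of RefSeq's GRCm38.p6 annotation, most of them before the gene's start, on the gene's strand, with the GC box GGGCGG or its reverse complement CCGCCC in capitals. Kcnab1 has 3 annotated starts, of which the first is shown.
Kcnc4, chr3:107458849-107459148, minus strand: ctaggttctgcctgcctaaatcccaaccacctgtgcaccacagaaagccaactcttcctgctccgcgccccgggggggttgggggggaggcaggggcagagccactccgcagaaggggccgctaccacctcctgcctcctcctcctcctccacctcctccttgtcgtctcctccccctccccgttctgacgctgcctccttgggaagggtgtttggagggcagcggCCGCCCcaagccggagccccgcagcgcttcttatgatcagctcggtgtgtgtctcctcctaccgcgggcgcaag
Kcnmb4, chr10:116473474-116473773, minus strand: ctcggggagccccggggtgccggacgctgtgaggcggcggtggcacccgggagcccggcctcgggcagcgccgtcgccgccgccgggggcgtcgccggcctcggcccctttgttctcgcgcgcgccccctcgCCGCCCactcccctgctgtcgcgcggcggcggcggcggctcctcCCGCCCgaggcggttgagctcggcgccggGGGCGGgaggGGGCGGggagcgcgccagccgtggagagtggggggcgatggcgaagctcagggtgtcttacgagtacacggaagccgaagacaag
Kcnd2, chr6:21215096-21215395, plus strand: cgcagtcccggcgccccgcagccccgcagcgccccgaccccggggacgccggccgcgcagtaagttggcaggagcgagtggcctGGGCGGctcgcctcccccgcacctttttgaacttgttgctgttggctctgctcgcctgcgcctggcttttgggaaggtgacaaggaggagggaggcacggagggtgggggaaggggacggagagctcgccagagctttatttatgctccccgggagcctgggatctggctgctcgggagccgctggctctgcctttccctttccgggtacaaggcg
Kcnab1, chr3:64948962-64949261, plus strand: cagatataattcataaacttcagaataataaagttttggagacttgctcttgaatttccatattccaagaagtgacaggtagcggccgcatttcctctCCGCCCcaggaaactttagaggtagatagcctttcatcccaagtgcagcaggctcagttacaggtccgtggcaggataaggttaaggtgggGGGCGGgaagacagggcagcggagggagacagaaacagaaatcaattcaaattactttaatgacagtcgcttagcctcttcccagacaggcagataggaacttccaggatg
The Kcnmb4 promoter holds 4 GC boxes and is 79% G or C, Kcnd2 and Kcnc4 hold 1 each at 68.7% and 66.7%, and the shown Kcnab1 start holds 2 at 46.7%. The other 2 Kcnab1 starts hold none. Of the 54 genes, 37 matched the promoter table, with 58 promoters. A GC box lay in 48.3% of these against 35.7% of all 32851 promoters, the TATA box TATAAA in 5.17% against 13.6%, CCAAT in 37.9% against 37.4%, the cyclic AMP response element TGACGTCA in 0% against 1.79% and the E-box CAGCTG in 32.8% against 16.3%, with each motif searched on both strands. Promoters of 1 gene can overlap, and a match describes letters, not binding.

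Each drug was then compared with vehicle within each region, over 78 to 81 of the 83 probes (those whose detection p was 0.2 or lower in each array of at least 1 group). In each region, replicate 2 lay on the first BeadChip for vehicle and Cpd-60 and on the second for SAHA and CI-994. Cpd-60 was therefore balanced with vehicle over the BeadChips, while for SAHA and CI-994 treatment and BeadChip were partly confounded. No potassium channel probe, and no probe on the array, reached an adjusted p under 0.05 in any of the 9 comparisons by limma. At an unadjusted p under 0.05, Cpd-60 had 3 of 81 probes in PFC, 1 of 78 in NAc and 6 of 80 in HIP, against 5.19%, 4.77% and 5.26% of all probes tested. SAHA had 0, 1 and 5 (2.25%, 2.05% and 9.37% of all probes), and CI-994 had 3, 2 and 1 (3.98%, 1.99% and 3.24%). With at least a 1.2-fold difference as well, Cpd-60 had 1 in PFC, 0 in NAc and 4 in HIP (1.11%, 1.78% and 1.53% of all probes), SAHA had 0, 0 and 4 (0.217%, 0.546% and 3.17%) and CI-994 had 0, 1 and 0 (0.654%, 0.383% and 0.67%). By Tukey's comparison after analysis of variance, the test in the study's methods, 1 probe passed at those thresholds for Cpd-60, in HIP, and 0 for SAHA and CI-994, against 0.463%, 0.21% and 0.146% of all tests over the 3 regions. The median 95% interval of a probe's drug difference reached 0.21 either side in PFC, 0.28 in NAc and 0.20 in HIP on the log2 scale, which bounds what 3 pools could show. The 3 drug pools lay wholly above or below the 3 vehicle pools for 5, 5 and 11 member probes with Cpd-60 in PFC, NAc and HIP (9.68%, 9.38% and 12.2% of all probes). For SAHA these counts were 3, 6 and 16 (8.68%, 7.11% and 19.3%), and for CI-994 they were 9, 6 and 2 (10.7%, 7.61% and 9.58%).

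**Figure D4:**
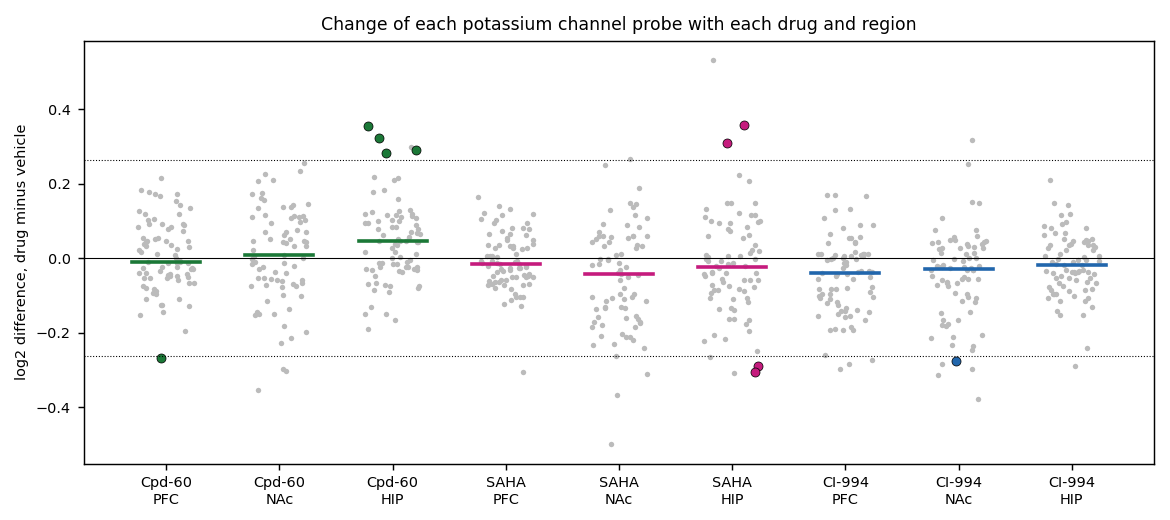
Log2 difference from vehicle of each tested potassium channel probe (points) for each drug and region, with the median as a bar, dotted lines at 1.2-fold and larger coloured points for probes past both nominal thresholds (1.2-fold or more, unadjusted p under 0.05). Medians lie between -0.04 and 0.05, and 10 coloured points stand out, 4 for Cpd-60 and 4 for SAHA in HIP.

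In HIP, Cpd-60 had 4 probes past both thresholds, all higher than vehicle. Kcnma1, the BK channel pore, read 8.25, 8.32 and 8.29 with vehicle and 8.67, 8.74 and 8.42 with Cpd-60 on its brighter probe, a difference of 0.32 (95% interval 0.10 to 0.54, adjusted p = 0.85 by limma). A second Kcnma1 probe read 7.79, 7.93 and 7.79 against 8.14, 8.23 and 8.01, a difference of 0.29 (0.11 to 0.47, adjusted p = 0.84 by limma). The groups did not overlap on either probe. Without Cpd-60 replicate 2, whose mice are numbered differently in 2 of its labels, both probes fell just short of 1.2-fold, at 0.26 and 0.24. On the dimmest Kcnma1 probe the groups overlapped, at 6.697, 6.742 and 6.837 with vehicle and 6.737, 6.885 and 6.795 with Cpd-60. Kcna1 read 7.38, 7.76 and 7.47 with vehicle and 7.87, 7.90 and 7.92 with Cpd-60 (0.36, interval 0.078 to 0.63, adjusted p = 0.91), and missed the unadjusted threshold without vehicle replicate 1 or vehicle replicate 3. The dimmer Kcnc4 probe read 7.47, 7.25 and 7.36 against 7.67, 7.78 and 7.47 (0.28, interval 0.082 to 0.48, adjusted p = 0.86), with the nearest pools of the groups equal at this rounding. The brighter Kcnc4 probe differed by -0.081 (interval -0.37 to 0.21, adjusted p = 0.99), so the gene's probes disagreed in sign. The dimmer one missed the thresholds without Cpd-60 replicate 2 (0.21) or vehicle replicate 2 (0.23). Within the BeadChips, the 2 on which each region was run, these 4 probes differed by 0.31 to 0.42 on the first and by 0.11 to 0.44 on the second.

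SAHA in HIP had 4 probes, 2 higher and 2 lower. Kcnk2 read 7.80, 8.06 and 7.91 with vehicle and 8.42, 8.15 and 8.28 with SAHA (0.36, interval 0.051 to 0.66, adjusted p = 0.52 by limma). The dimmer Kcnk2 probe differed by -0.13 (interval -0.32 to 0.056, adjusted p = 0.61), the opposite sign. The dimmer Kcnk1 probe, for the leak channel TWIK-1, read 8.56, 8.91 and 9.01 against 9.04, 9.11 and 9.25 (0.31, interval 0.0098 to 0.61, adjusted p = 0.53). On the brighter Kcnk1 probe the groups overlapped, at 9.756, 9.695 and 9.809 with vehicle and 9.805, 9.852 and 9.889 with SAHA. Kcnn3, a small-conductance calcium-activated channel, read 7.22, 7.06 and 6.91 against 6.84, 6.61 and 6.82 (-0.31, interval -0.57 to -0.041), and Kcng2 read 7.90, 7.61 and 7.65 against 7.46, 7.42 and 7.40 (-0.29, interval -0.55 to -0.024), each with an adjusted p of 0.52. A dimmer Kcng2 probe read 7.171, 6.846 and 6.923 with vehicle and 6.858, 6.752 and 6.840 with SAHA, with overlap. The groups did not overlap for any of the 4 probes past both thresholds. Without vehicle replicate 1 none of them passed both thresholds (0.29, 0.18, -0.23 and -0.20), and in a fit with a BeadChip term only Kcnk2 did (0.37). Leaving out the dim SAHA replicate 2 ended the call of Kcnk1, Kcnn3 and Kcng2, and leaving out replicate 3 that of Kcnk2, Kcnk1 and Kcng2. In the same comparison 3 of 6 oligodendrocyte markers were nominally lower (summed intensity 18239 to 19670 with SAHA and 21371 to 23451 with vehicle), Gfap differed by -0.81 and Slc1a3 by 0.33, and their part in the channel differences was not tested.

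The remaining 2 probes were 1 for Cpd-60 in PFC and 1 for CI-994 in NAc. Kcnv1 in PFC read 8.73, 8.72 and 8.42 with vehicle and 8.47, 8.24 and 8.36 with Cpd-60 (-0.27, interval -0.50 to -0.031, adjusted p = 0.92 by limma), groups that overlapped, and it missed the thresholds without vehicle replicate 1 or 2 or Cpd-60 replicate 2. Kcna1 in NAc read 7.70, 7.81 and 7.74 with vehicle and 7.59, 7.48 and 7.36 with CI-994 (-0.27, interval -0.47 to -0.075, adjusted p = 1.0), without overlap, and fell short of 1.2-fold without vehicle replicate 2 (-0.24) or CI-994 replicate 3 (-0.22). Fitted with a BeadChip term, that difference was -0.25, also short of 1.2-fold. The largest drug differences of all were those of Kcnab2, 0.53 for SAHA in HIP and -0.50 in NAc, but its pools spread over 10.96 to 11.91 with vehicle alone in HIP, and the intervals were -0.27 to 1.33 and -1.37 to 0.37.

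**Figure D5:**
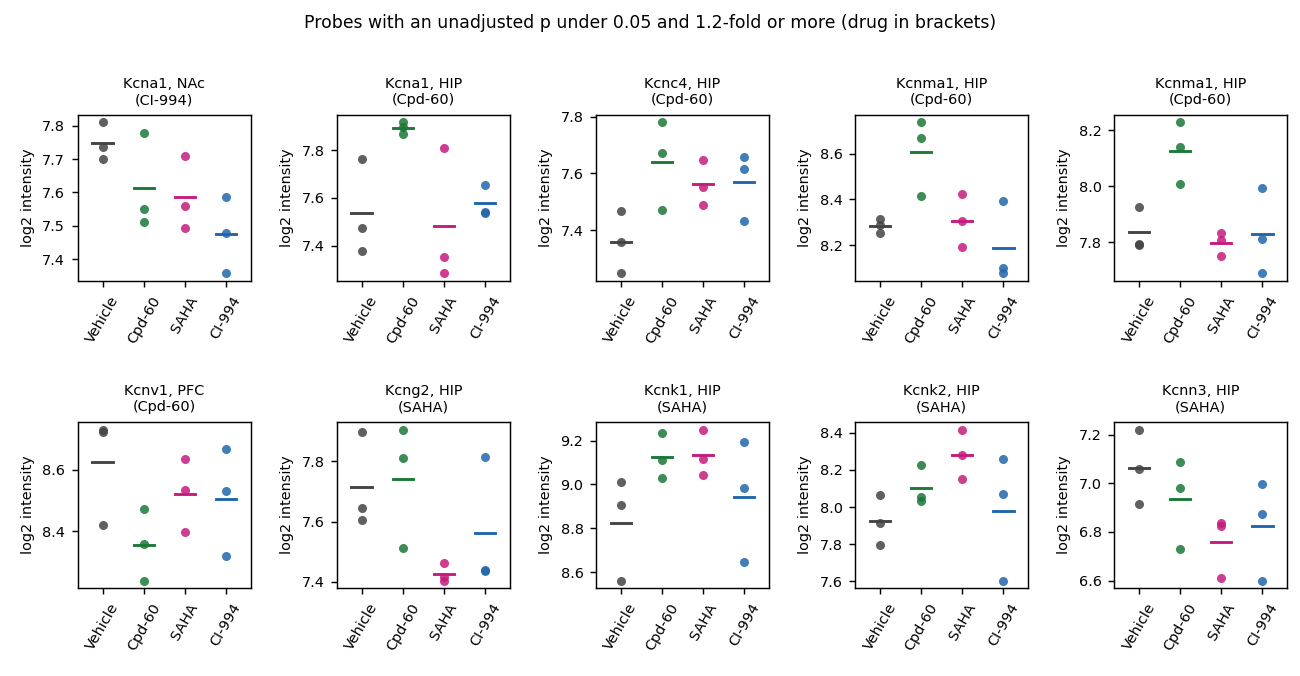
Log2 intensity of the 10 probes past both nominal thresholds, 1 panel a probe with the region and the drug in its title, showing the 3 pools of each of the 4 treatments as points and the mean as a bar. Kcna1 in HIP stands from 7.87 to 7.92 with Cpd-60 above vehicle at 7.38 to 7.76, and the Kcnv1 pools in PFC overlap.

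Set beside each other at their own doses, the drugs gave Kcnma1 in HIP at 8.67, 8.74 and 8.42 with Cpd-60, 8.42, 8.19 and 8.31 with SAHA and 8.10, 8.39 and 8.08 with CI-994. Kcna1 in HIP stood at 7.87, 7.90 and 7.92 with Cpd-60, 7.81, 7.35 and 7.28 with SAHA and 7.54, 7.54 and 7.65 with CI-994. Doses differed, so the drugs were not tested against each other, and all 3 share the same vehicle pools. Over the members the median difference from vehicle lay between -0.04 for SAHA in NAc and 0.05 for Cpd-60 in HIP, against medians between -0.0081 and 0.0029 over all probes.

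Whether a drug's difference itself varied between regions was tested over the 74 member probes measured in all 3, with 9 contrasts of 1 drug between a pair of regions. No probe reached an adjusted p under 0.05 by limma, among members or over the array. At an unadjusted p under 0.05, Cpd-60 had 1 member between NAc and PFC (2.71% of all probes) and 1 between HIP and NAc (2.42%), SAHA had 1 and 5 (1.69% and 6.61%), and CI-994 had 2 between NAc and PFC (1.62%) and 1 between HIP and PFC (1.57%). Kcna1 differed from vehicle by 0.49 ± 0.18 (SE) more in HIP than in NAc with Cpd-60 (adjusted p = 1.0 by limma). The dimmer Kcnk1 probe did so by 0.52 ± 0.22 with SAHA and Kcnn3 by -0.36 ± 0.18, both within the unadjusted threshold only. The smallest p belonged to a dim Kcnq5 probe, -0.38 ± 0.11 for SAHA between NAc and PFC, at levels close to background.

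Of 30 genes that work with potassium channels (Kv4 and Kv1 partners, ATP-sensitive channel subunits, HCN channels, scaffolds, sodium pumps and chloride cotransporters), 23 were tested between regions. Lower in NAc than in PFC were 5, with 1 higher, and HIP differed from PFC at 7 (3 higher), counts near the 23.7% and 31.1% of all probes. Dpp10, a Kv4 auxiliary protein, was 1.51 ± 0.08 lower in HIP and 0.54 ± 0.08 lower in NAc than in PFC, and Cntnap2, which clusters Kv1 channels along axons, was 0.95 ± 0.17 higher in NAc. The sulphonylurea receptor Abcc8 was 0.46 ± 0.08 lower in NAc than in PFC. With drugs 24 to 26 of these genes were tested and none had an adjusted p under 0.05. Among those past both nominal thresholds were Dpp6 and Dpp10 for Cpd-60 in NAc (0.37 and 0.27), Dlg4 for SAHA in NAc (-0.28), and Abcc8 and Slc12a2 for SAHA in HIP (-0.28 for both).

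At the edge of the detection rule, the highest detection p in the best region was 0.035 for Kcne1, 0.031 for Kcnk12 and 0.027 for a Kcnc2 probe inside it, and 0.060 for Kcna5, 0.061 for a second Kcnj6 probe and 0.066 for Kcnk10 outside it. The other 36 genes had no probe past the rule, among them Kcna4, Kcnd3, Kcnj11 and Kcnk9. A probe below the rule was not detected on this array, which does not show that its gene is silent.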

How the data were processed

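Biotin-labelled RNA of 36 pools was hybridised to Illumina MouseWG-6 BeadChips. The authors deposited, for each array, non-normalized bead intensity values per probe, with background still in them, and a detection p-value per probe; the scanner software's version is not given in the sources used here. Arrays were grouped by the treatment, region and mouse numbers in their labels, and every column of the table was mapped to a sample. The intensities of all 36 arrays were quantile-normalized together, floored at 1 and log2-transformed (R 4.3.3, limma 3.58.1). Drugs were compared with vehicle in each region by lmFit and eBayes over 12 arrays and 4 groups, for probes whose detection p was 0.2 or lower in each array of some group. Regions were compared within the 9 vehicle and within the 27 drug-treated arrays, and drug differences between regions over 36 arrays, with the pool as a random block, since the same mice gave all 3 regions (consensus correlations -0.067, -0.00055 and -0.0050). Benjamini-Hochberg adjustment ran over all probes tested, with a threshold of 0.05, and nominal drug differences needed an unadjusted p under 0.05 and 1.2-fold. Replicates are pools of different mice. Their number, with 3 per group, limits the precision.

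Genes named were 29 set from general knowledge (27 of them members), up to 5 largest differences each way past the thresholds in each comparison, and genes whose probes differ in sign where 1 passes. A gene is given by its probe with the highest mean, others where they differ. Some genes that enter the counts are not reported here by name. Roles, partner genes and marker lists, and the members themselves, were chosen with earlier results of these data known. All 54 gene symbols matched RefSeq's GRCm38.p6 gene table. Tests were checked on simulated data. Alternatives tried were neqc normalization (offset 16), a detection p of 0.01, no detection filter, the BeadChip or replicate number as a block, the analysis of variance with Tukey's comparison named in the study's methods, 27 arrays without CI-994, and leaving out each pool. Groups of 3 are too small to look for a single outlying array by a formal rule.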

Additional observations from a re-analysis of the deposited data

How the results depend on the processing

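The 6 counts of region differences stayed within 1.5 times of those given under neqc normalization, both detection filters, no replicate block and the replicate block as a fixed term (vehicle NAc against PFC 47 to 49, drug-treated NAc against PFC 52 to 56). Leaving out 1 vehicle pool gave 19 to 49 for NAc against PFC, 15 to 44 for HIP against PFC and 11 to 44 for HIP against NAc under vehicle. In the drug-treated arrays the ranges were 53 to 57, 46 to 51 and 44 to 54. The nominal drug counts were less steady. Against 5 for Cpd-60, 4 for SAHA and 1 for CI-994, neqc normalization, which subtracts background and so widens the folds of dim probes, gave 9, 10 and 9. A block for the BeadChip left 8, 1 and 0. The replicate block gave 8, 5 and 5, and the analysis of variance with Tukey's comparison 1, 0 and 0. Leaving out 1 pool gave 3 to 17 for Cpd-60 (17 without Cpd-60 replicate 3), 0 to 6 for SAHA (0 without vehicle replicate 1) and 1 to 12 for CI-994 (12 without CI-994 replicate 1). No member reached an adjusted p under 0.05 in a drug comparison of the limma alternatives; the cause of the moves was not tested. Nominal drug differences between regions, 2, 6 and 3 for Cpd-60, SAHA and CI-994, became 4, 6 and 2 with neqc, and ranged over 2 to 12, 1 to 17 and 2 to 9 when 1 pool was left out. Replicate numbers named different mice in different treatments: same-numbered pools of a region had deviations correlated from -0.47 to 0.88 (32 of 54 pairs over 0.1), too mixed to pair them. The number also marks the BeadChip in part, since all 12 arrays of replicate 1 were on the first of their region and all 12 of replicate 3 on the second. Named region differences kept their sign in all settings run. Low signal limits the dim probes, since 54 of the 83 were detected in all vehicle pools of every region.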
